A study of Homo sapiens with 6 samples.

Results

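The aryl hydrocarbon receptor axis was taken as 8 genes, AHR, ARNT, AHRR, TIPARP, CYP1A1, CYP1A2, CYP1B1 and ALDH3A1, out of 18239 genes named on the array. A gene was included through every probe set annotated with its symbol alone, which gave 22 probe sets, from 1 for ALDH3A1 to 5 each for ARNT and CYP1B1. RNA came from LNCaP, a widely used cell line from a human prostate adenocarcinoma that responds to androgen, grown in F12 medium with serum. Expression was read on U219 arrays of Affymetrix, 3 from control cells and 3 from cells given 40 µM urolithin A for 24 h. Sample titles describe the controls as untreated, whereas the protocol speaks of saline, and no solvent for urolithin A is named. Urolithin A is a metabolite that gut bacteria form from ellagic acid. Whether arrays of a group stem from separate cultures is not stated, so the p-values measure the spread between these arrays only, and that spread may be technical.

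The receptor encoded by AHR rests in the cytosol with the chaperone HSP90. When it binds a planar aromatic ligand it enters the nucleus, pairs with ARNT and activates genes that carry a xenobiotic response element. The best known of these are CYP1A1, CYP1A2 and CYP1B1, monooxygenases that oxidise polycyclic hydrocarbons and oestrogens, and 2 of the induced genes, AHRR and TIPARP, in turn restrain the receptor. Urolithin A has been described as a ligand that antagonises the human receptor, so the axis is a natural place to compare treated with untreated cells.

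Of the axis only CYP1A1 passed the test, by a small margin, with a fall of 1.25-fold. The other 7 genes did not pass, with 0 of them at an unadjusted p under 0.05 in limma, and in each of those 7 the treated arrays overlapped the controls. Their fitted changes ranged from -0.048 for AHRR to 0.19 for AHR on the log2 scale. Values here are deposited log2 values minus the median of the 3 control arrays, averaged over the probe sets of a gene, so they show how arrays differ and not how abundant a message was. A gene passed where limma, a linear model that borrows the estimate of spread across genes, gave over all 18239 genes a Benjamini-Hochberg adjusted p under 0.05. With 1 of 8 genes called, the axis stood near the background, since 10.2% of all genes were called, 4.85% as higher and 5.31% as lower. The count of genes whose groups did not overlap was 1 of 8, against 29.3% of all genes. The median log2 change was -0.019 over the 8 genes and 0.01 over all genes, and the median size of the change was 0.056 in the axis and 0.1 among all genes.

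**Figure D1:**
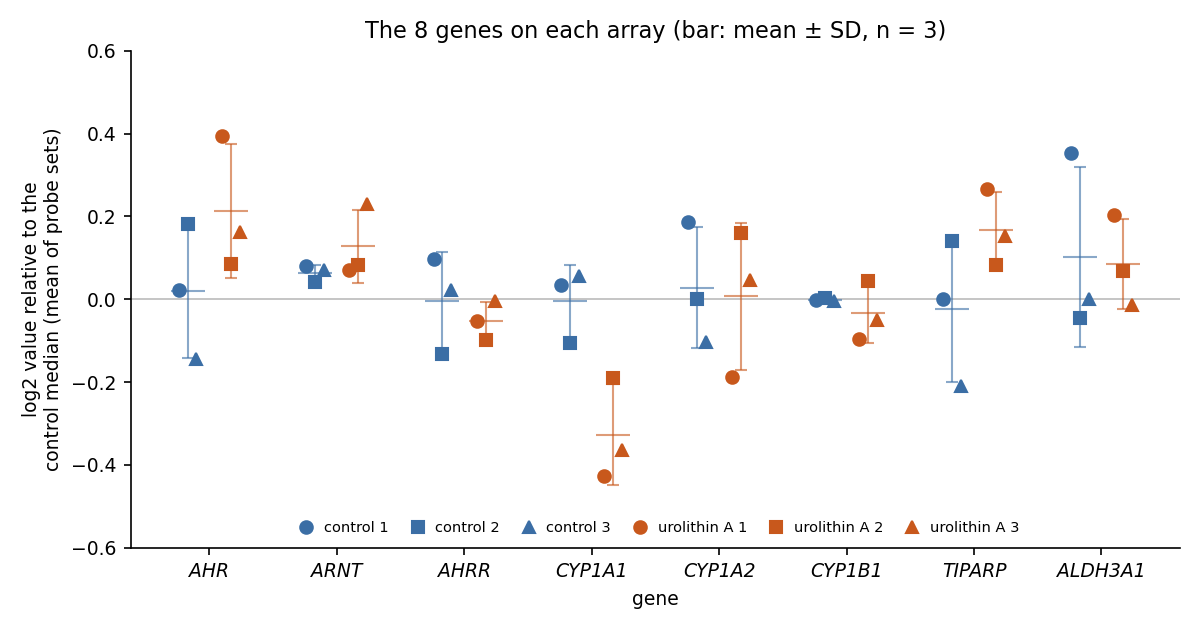
Log2 value of each of the 8 genes on each of the 6 arrays (vertical axis, relative to the control median, mean of the gene's probe sets), with controls in blue, urolithin A arrays in orange and the mean ± SD of 3 arrays as bars. Only for CYP1A1 do the treated arrays, from -0.43 to -0.19, lie wholly apart from the controls, from -0.11 to 0.06.

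CYP1A1, the receptor's most studied target, was lower on every treated array. Control replicates 1, 2 and 3 stood at 0.04, -0.11 and 0.06, and urolithin A replicates 1, 2 and 3 at -0.43, -0.19 and -0.36. The groups were apart, although urolithin A replicate 2 lay close to control replicate 2. The log2 change was -0.32 (SE 0.08, adjusted p = 0.0453 in limma). Its 95% interval ran from a fall of 1.43-fold to a fall of 1.10-fold. A rise of the gene mean lay outside this interval, which is not adjusted for the number of genes. The interval of 1 of its 2 probe sets, 11754154_a_at, did include a rise, from -0.38 to 0.078 on the log2 scale. The fall was smaller than the median fold of 1.36 among the 969 genes called lower, of which 166 fell less than CYP1A1 did. In size it ranked 1924 of 18239 genes.

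The call on CYP1A1 depended on single arrays. It was lost in 5 of 6 fits that left out an array, at an adjusted p of 0.131 without control replicate 1, 0.0594 without control replicate 2, 0.125 without control replicate 3, 0.134 without urolithin A replicate 1 and 0.116 without urolithin A replicate 3. It was kept without urolithin A replicate 2, at an adjusted p of 0.0365. The direction was the same in each of these fits, with log2 changes between -0.39 and -0.27.

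The 2 probe sets of CYP1A1 differed in size. In replicates 1, 2 and 3, probe set 11726536_at read 0.07, -0.05 and 0 for the controls and -0.69, -0.29 and -0.48 after urolithin A, with the groups well apart. Its log2 change was -0.49 (SE 0.11, adjusted p = 0.0304 in limma over all 45253 probe sets). Without a single array this call was kept only when urolithin A replicate 2 was left out (adjusted p = 0.0238) and lost otherwise, at an adjusted p from 0.0716 without control replicate 2 to 0.0971 without control replicate 1. Probe set 11754154_a_at read 0, -0.16 and 0.11 in the controls and -0.16, -0.09 and -0.25 in the treated arrays. Here the groups overlapped, and the log2 change of -0.15 (SE 0.1, adjusted p = 0.437) did not pass. Of the 22 probe sets of the axis, 11726536_at was the single one called, where 8.51% of all probe sets were called.

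**Figure D2:**
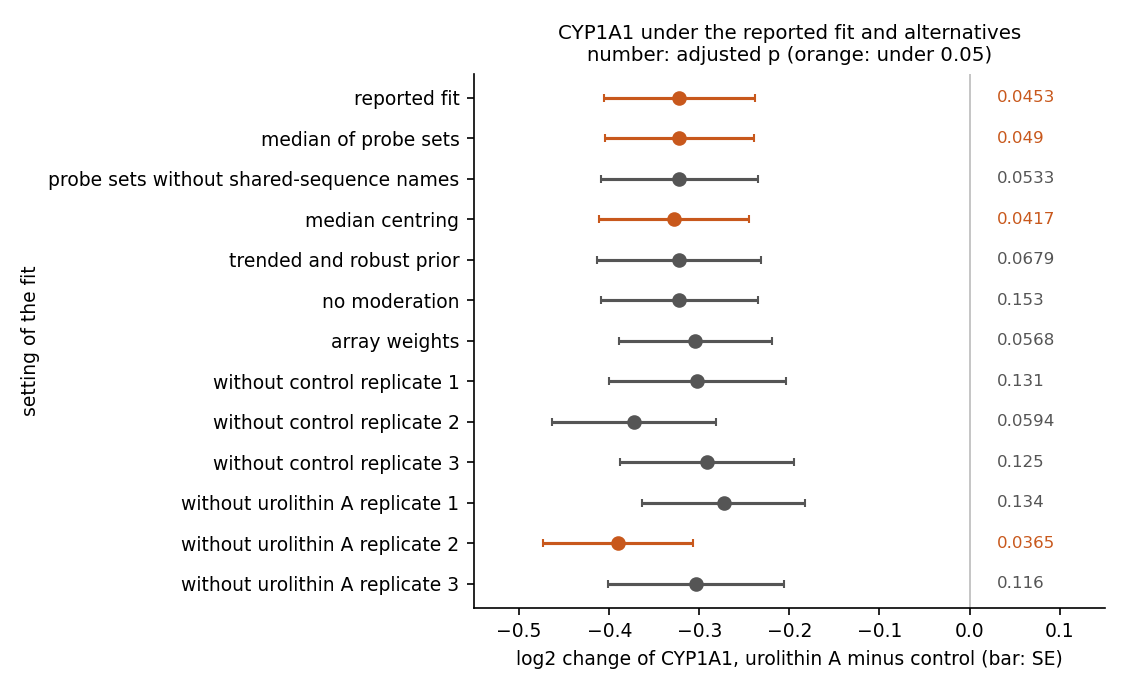
Log2 change of CYP1A1 (horizontal axis, bar for the SE) in the reported fit and under alternative settings (vertical axis), with the adjusted p printed at the right. The limma fit with a replicate block in the model (adjusted p = 0.0811) is not drawn. Every point lies between -0.39 and -0.27, while the adjusted p ranges from 0.0365 to 0.153.

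CYP1A2, the liver-type relative that oxidises caffeine, is the neighbour of CYP1A1 on chromosome 15, with no other gene between them in the RefSeq table of GRCh38.p14, and is read from the opposite strand. The promoters of this pair are shown because their messages were the called and an uncalled case side by side. They run from 250 bases before to 50 after the start of transcription, from RefSeq on GRCh38.p14, at chr15:74725479-74725778 on the minus strand for CYP1A1 and chr15:74748595-74748894 on the plus strand for CYP1A2. Capitals mark GCGTG, the core of the xenobiotic response element, on either strand. The CYP1A1 window holds 1 match to these letters, beginning 57 bases before the start, and the CYP1A2 window holds none. Such a match is common, found in 36.5% of all windows of this length and also in windows of the uncalled AHR, AHRR and TIPARP. The CYP1A1 match is not part of the longer form TNGCGTG. Whether the receptor binds there, or whether the match bears on the fall of CYP1A1, was not tested.
CYP1A1: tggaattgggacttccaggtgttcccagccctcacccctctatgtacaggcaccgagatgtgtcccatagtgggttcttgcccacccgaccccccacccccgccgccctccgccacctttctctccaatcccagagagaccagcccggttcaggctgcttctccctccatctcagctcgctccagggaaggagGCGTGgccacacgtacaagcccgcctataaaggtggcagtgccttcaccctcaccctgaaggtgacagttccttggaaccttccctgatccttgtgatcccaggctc
CYP1A2: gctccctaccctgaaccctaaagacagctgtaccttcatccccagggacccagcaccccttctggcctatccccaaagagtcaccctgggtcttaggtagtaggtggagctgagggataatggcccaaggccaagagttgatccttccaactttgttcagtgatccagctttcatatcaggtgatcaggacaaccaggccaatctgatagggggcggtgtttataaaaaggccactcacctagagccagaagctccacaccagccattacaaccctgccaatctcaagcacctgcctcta

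CYP1A2 did not separate the groups. Replicates 1, 2 and 3 gave 0.19, 0 and -0.10 for the controls and -0.19, 0.16 and 0.05 after urolithin A. The lowest array of all was treated and the next highest after control replicate 1 was treated too. The log2 change was -0.021 (SE 0.11, adjusted p = 0.937 in limma), and its 95% interval reached from 1.20-fold lower to 1.17-fold higher. The 2 probe sets, at -0.13 and 0.09, had opposite signs.

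CYP1B1, the family member best known outside the liver and in hormone-responsive tissues, had controls within 0.01 of one another, at -0.0015, 0.0038 and -0.0053. Urolithin A replicates 1, 2 and 3 stood at -0.10, 0.04 and -0.05, on both sides of them. The log2 change of -0.033 (SE 0.07, adjusted p = 0.827 in limma) had an interval that ran from 1.13-fold lower to 1.08-fold higher. The mean hides 5 probe sets that spread from -0.22 to 0.17. Of these, 2 had a positive and 3 a negative change, and none passed in limma, with 1 at an unadjusted p under 0.05. The lowest, 11745721_s_at, had treated arrays from -0.34 to -0.11, below controls from -0.10 to 0.05, and an adjusted p of 0.214. All 5 carry the suffix that marks probes shared with other transcripts.

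ALDH3A1, an aldehyde dehydrogenase of the receptor's gene battery, had a single probe set. Control replicates 1, 2 and 3 read 0.35, -0.05 and 0, and urolithin A replicates 1, 2 and 3 read 0.20, 0.07 and -0.01. The spread among the controls was wider than any difference between the groups. The log2 change was -0.017 (SE 0.11, adjusted p = 0.954 in limma), with an interval from 1.21-fold lower to 1.18-fold higher.

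CYP1A1 was set against each other gene of the axis by the difference of their values within an array. The change of CYP1A1 was lower than that of CYP1B1 by a log2 difference of -0.29 and lower than that of CYP1A2 by -0.30. Over the 7 such pairs the groups were apart for 5, namely ARNT, AHRR, CYP1A2, CYP1B1 and TIPARP. Each of these 5 had an exact two-sided permutation p of 0.1, the smallest that 3 against 3 arrays can give, and 0.14 after Benjamini-Hochberg adjustment over the 7 pairs. The differences of CYP1A1 from AHR and ALDH3A1 had overlapping groups, with an exact permutation p of 0.2. With so few arrays no pair could reach 0.05. All 7 differences hold the same CYP1A1 values, whose groups were apart by themselves, so they are not separate results. The share of such differences that are apart over all genes was not computed.

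AHR itself, the ligand-binding receptor, had the highest mean change of the axis without passing. Control replicates 1, 2 and 3 stood at 0.02, 0.18 and -0.14, and urolithin A replicates 1, 2 and 3 at 0.40, 0.08 and 0.16. Urolithin A replicate 1 was the highest array, while the other treated arrays lay within the control range. The log2 change was 0.19 (SE 0.11, adjusted p = 0.328 in limma), and the interval ran from 1.04-fold lower to 1.36-fold higher.

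The 3 probe sets of AHR disagreed in sign. Probe set 11751921_s_at read 0, 0.37 and -0.19 in the controls and 0.86, 0.32 and 0.50 in the treated arrays, a log2 change of 0.50 (SE 0.17, adjusted p = 0.124). Probe set 11739681_x_at had treated arrays from 0.07 to 0.44 against controls from -0.12 to 0.06, a change of 0.25 short of the threshold (adjusted p = 0.245). Probe set 11739680_a_at had a change of -0.16, with treated arrays from -0.18 to -0.11 and controls from -0.11 to 0.17. The former pair carries suffixes for sequence shared with other transcripts. With such probe sets left out, the value of AHR turned to -0.16 (SE 0.09, adjusted p = 0.314), so no direction can be given for AHR.

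ARNT, the partner that AHR shares with the hypoxia-inducible factors, had controls of 0.08, 0.04 and 0.07 and treated arrays of 0.07, 0.08 and 0.23. Urolithin A replicate 3 stood above the rest, and the other treated arrays lay at the control level. The log2 change was 0.063 (SE 0.07, adjusted p = 0.649 in limma), with an interval from 1.07-fold lower to 1.17-fold higher. Its 5 probe sets divided in the same manner as those of AHR. The 2 with a shared-sequence suffix had changes of 0.303 and 0.304, and the 3 without it lay between -0.16 and -0.065. None of the 5 was called in limma, and 1 had an unadjusted p under 0.05. Without the shared-sequence probe sets, ARNT had a change of -0.10.

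AHRR, the repressor that competes with AHR for ARNT, had controls of 0.10, -0.13 and 0.02, and treated arrays of -0.05, -0.10 and -0.01 all within that range. Its change was -0.048 (SE 0.08, adjusted p = 0.774 in limma), with an interval from 1.17-fold lower to 1.09-fold higher, and both probe sets overlapped between the groups.

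TIPARP, also called PARP7, is a mono-ADP-ribosyltransferase that the receptor induces and that marks the receptor for breakdown. Control replicates 1, 2 and 3 were at 0, 0.14 and -0.21, and urolithin A replicates 1, 2 and 3 at 0.27, 0.08 and 0.15. The treated arrays sat in the upper part of the range and overlapped control replicate 2. The log2 change was 0.19 (SE 0.1, adjusted p = 0.289 in limma), with an interval from 1.02-fold lower to 1.33-fold higher. The gene mean joins unlike probe sets. Probe set 11717399_a_at read 0, 0.15 and -0.13 in the controls and 0.65, 0.35 and 0.28 in the treated arrays, which were all higher. Its change of 0.42 (SE 0.12) missed the threshold (adjusted p = 0.07), and it missed it in each fit without an array, at adjusted p from 0.0743 to 0.184. Probe set 11755700_a_at had a change of -0.042, with overlapping groups.

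The root-mean-square distance between the values of TIPARP and AHR over the 6 arrays was 0.06 on the log2 scale, which placed TIPARP 13 among 18238 other genes in nearness to AHR, a pairing singled out after its values were seen. The nearness was not kept without probe sets of shared-sequence names, an alternative chosen after seeing the data, where TIPARP ranked 11297 among 16776 other genes at a distance of 0.23. With all probe sets, the other 6 genes of the axis ranked from 3548 for ARNT to 17218 for CYP1A1. The genes nearest to CYP1A1 by the same measure were MED8, a Mediator subunit, FASTKD5, which acts on mitochondrial RNA, and CS, the citrate synthase, at distances of 0.04, 0.05 and 0.05.

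**Figure D3:**
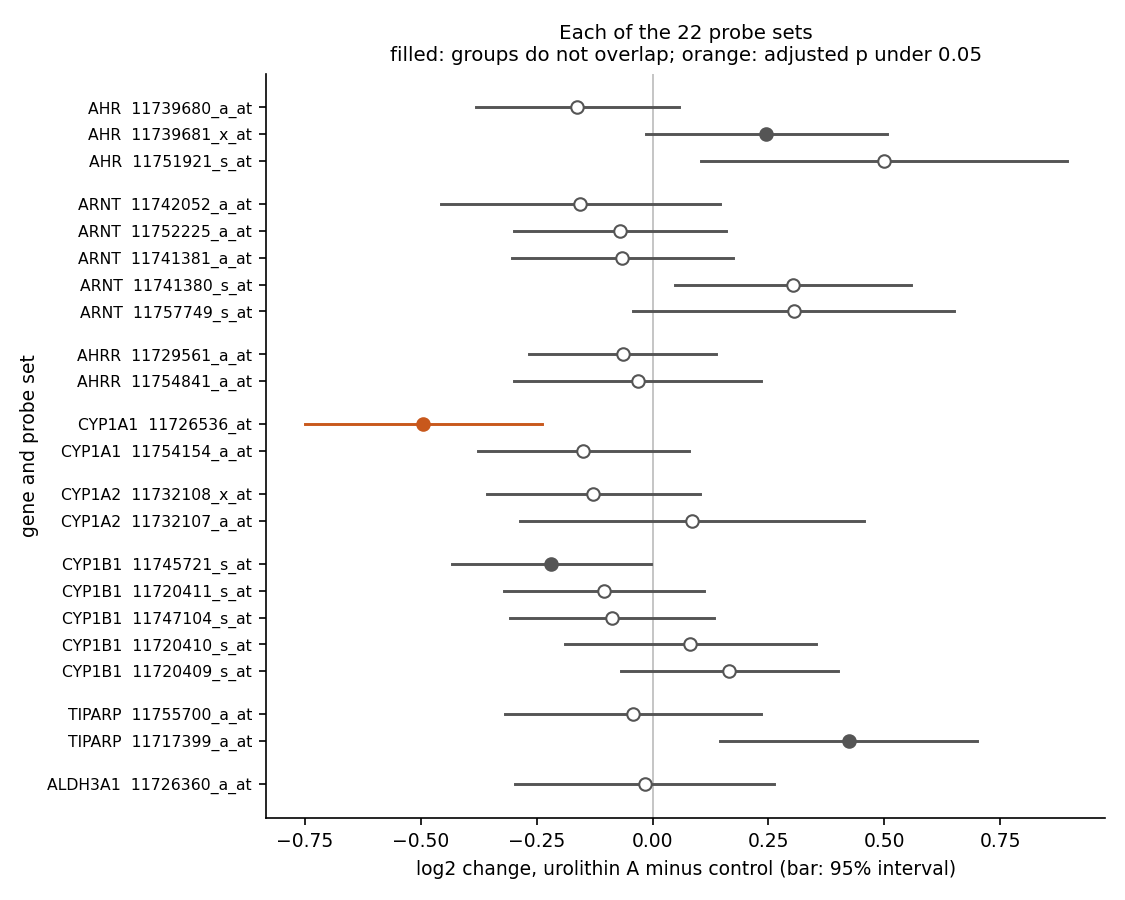
Log2 change of each of the 22 probe sets (horizontal axis, urolithin A minus control, bar for the 95% interval), grouped by gene on the vertical axis. Filled points mark the 4 probe sets whose groups do not overlap, and the orange point is the called CYP1A1 probe set at -0.49, with AHR, ARNT, CYP1A2, CYP1B1 and TIPARP each holding probe sets on both sides of 0.

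Over all 22 probe sets, 8 had a positive and 14 a negative change. The groups did not overlap in 4 of them, 18.2% of the set, against 28.1% of all probe sets. These 4 belong to AHR, CYP1A1, CYP1B1 and TIPARP. Urolithin A replicate 1 was the treated array farthest from the control mean in 5 of the 8 genes, where 35.1% of all genes had it farthest.

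Response-element cores were sought near the starts of transcription. RefSeq promoters matched 6 of the 8 genes with 9 start sites, and CYP1B1 and ALDH3A1 were not among them. GCGTG, searched on both strands, was present in 5 of these 9 windows, belonging to AHR, AHRR, CYP1A1 and TIPARP, and in 36.5% of all 35116 windows of the same length. The longer TNGCGTG, which contains that core, was found in 1 window, of AHRR, and in 5.51% of all windows. For each gene with a match 1 is shown, with up to 10 bases on each side, and capitals mark the motif, to set the called CYP1A1 beside genes that were not called. Positions are chr15:74725571-74725595 on the minus strand for CYP1A1, chr5:321672-321698 on the plus strand for AHRR, chr3:156674372-156674396 on the plus strand for TIPARP and chr7:17298679-17298701 on the plus strand for AHR. The TIPARP window holds 2 cores, and a second AHRR window, at another start site, holds 2. In TIPARP the core shown lies on the opposite strand and so reads CACGC. A match describes the letters of this window only.
CYP1A1: agggaaggagGCGTGgccacacgta
AHRR: ggcgggcggcTCGCGTGccggggtggg
TIPARP: cgagaaaggaCACGCcccctcgcgg
AHR: tgttccgagaGCGTGccccggac

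**Figure D4:**
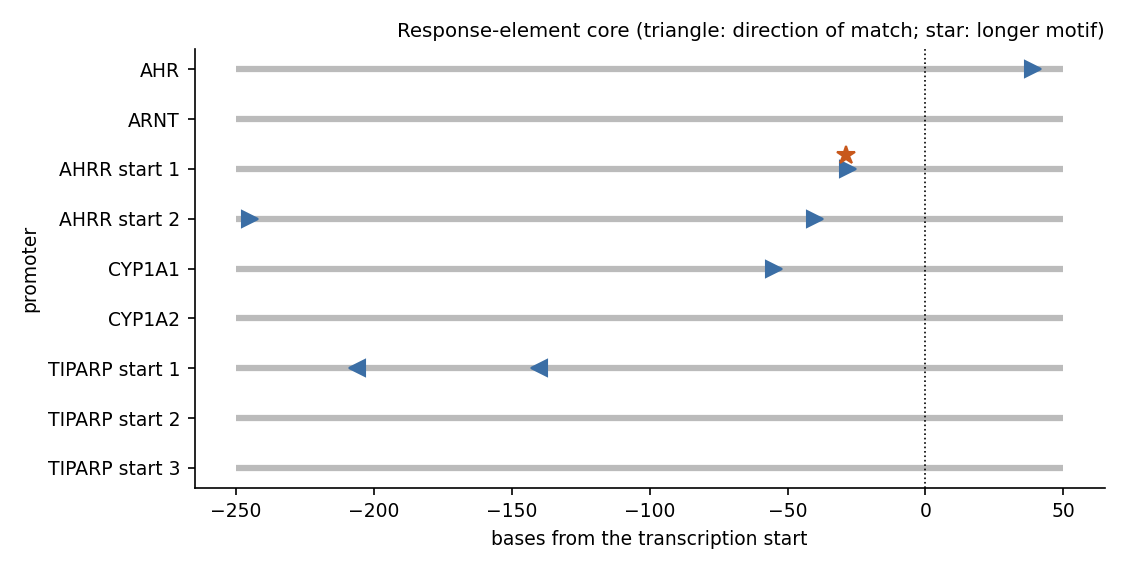
Position of the response-element core in the 9 promoter windows (horizontal axis, bases from the transcription start; 1 row for each start site), with triangles pointing along the matched strand and a star for the longer motif. CYP1A1 has 1 core and CYP1A2 and ARNT have none.

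Genes around the receptor were examined as 9 lists, from its cytosolic complex to other sensors of foreign compounds. Of 105 measured genes, 9 rose, 7 fell and 89 did not pass. That is 15.2% called, beside 10.2% of all genes, and the median log2 change of 0.029 lay near the 0.01 of all genes. The calls were scattered, with at most 3 in a list. In the 6 fits that each left out an array, 5 of the 16 called genes kept their call throughout, namely NQO1, BMAL2, CYP2E1, ALDH1A3 and ZC3HAV1. Of the 16, 10 lost their call in at least 4 of those fits. Other settings ended calls among the 5 too. In a limma fit that did not borrow the spread across genes, NQO1 (adjusted p = 0.0579), BMAL2 (0.0801), CYP2E1 (0.093) and ALDH1A3 (0.0977) lost theirs. ZC3HAV1 kept its call there (0.0392) but lost it under other settings given with its values.

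Among other genes of the receptor's battery, 2 of 14 rose and 1 fell, while 11 did not pass. The median was 0.04. NQO1, a quinone reductase that NRF2 also induces, had the smallest adjusted p of this list. Its control values were 0.08, 0 and -0.28, and its treated values 0.74, 0.73 and 0.67. The treated arrays were close together and far above the controls, a rise of 1.72-fold (log2 change 0.78, SE 0.1, adjusted p = 0.00219 in limma), and both probe sets passed. CDKN1B, the cell cycle inhibitor p27, rose 1.25-fold (adjusted p = 0.0268), although neither of its 2 probe sets passed alone. GSTA2, a glutathione transferase, fell 1.6-fold (adjusted p = 0.0397), with treated arrays from -1.02 to -0.29. It has 1 probe set, whose name marks sequence shared with other transcripts. Its call was also lost in limma with the median of probe sets (adjusted p = 0.0519) and a trended and robust prior (adjusted p = 0.054). With 1 probe set the median left the value of GSTA2 unchanged, so its adjusted p moved there only through the other genes. The calls of CDKN1B and GSTA2 were each lost in 5 of 6 fits without an array, at adjusted p up to 0.0887 and 0.127. NQO1 kept its call in each of those 6 fits, while CDKN1B, GSTA2 and CYP1A1 did not. CYP1A2, CYP1B1 and ALDH3A1 did not pass. Whether the receptor had a part in any of these changes was not tested.

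Of 13 relatives of AHR and ARNT in the bHLH-PAS family, there was 1 rise and 1 fall, and the median was 0.05. BMAL2, a partner of CLOCK, fell 1.58-fold (log2 change -0.66, SE 0.1, adjusted p = 0.0053 in limma), from controls of -0.05 to 0.15 to treated arrays of -0.83 to -0.52. EPAS1, which encodes the hypoxia-inducible factor HIF-2 alpha and binds ARNT, rose 1.23-fold (adjusted p = 0.0318), a call lost in 5 of 6 fits without an array, at adjusted p up to 0.104. Of the 2 probe sets of EPAS1, with changes of 0.097 and 0.49, 1 passed. HIF1A, its better known relative, stood at a change of -0.01 (SE 0.07, adjusted p = 0.951) over 8 probe sets, and its sign turned under some settings. ARNT2, which can stand in for ARNT, had a change of 0.18 (adjusted p = 0.19), with 1 of 4 probe sets passing.

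Of 8 genes of the receptor's cytosolic complex and its degradation, the median was -0.058, and 7 did not pass. CUL4B, the scaffold of a ubiquitin ligase that works with the receptor, fell 1.27-fold (adjusted p = 0.0271 in limma). Its treated arrays lay between -0.46 and -0.26 and its controls between -0.11 and 0.01. The call was lost in 4 of 6 fits without an array, at adjusted p up to 0.0894. The 3 probe sets of CUL4B ran from -0.70 to 0.075, and 2 of them passed. Among 13 coregulators, CREBBP, a histone acetyltransferase, rose 1.24-fold at the edge of the threshold (adjusted p = 0.0487), and 12 did not pass. That call was lost in 5 of 6 fits without an array, at adjusted p up to 0.138, and with the median of its 5 probe sets the change was 0.17 (adjusted p = 0.305).

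Enzymes that make or remove tryptophan-derived ligands showed 1 rise and 1 fall among 12 genes, with a median of -0.0089. KYNU, kynureninase, rose 1.27-fold (adjusted p = 0.0397 in limma), where 1 of 3 probe sets passed, at 0.84, and the lowest had a change of 0.02. With the median of its probe sets the call of KYNU was lost, at 0.16 (adjusted p = 0.264). AADAT, which turns kynurenine into kynurenic acid, fell 1.37-fold (adjusted p = 0.0137). Its treated arrays, from -0.56 to -0.29, lay below controls from -0.07 to 0.08. The call of KYNU was lost in 5 of 6 fits without an array, at adjusted p up to 0.121, and that of AADAT in 1, without urolithin A replicate 1 (adjusted p = 0.0505).

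Among 18 electron partners of P450 enzymes and other xenobiotic P450 genes, 2 rose and 1 fell, while 15 did not pass. The median was 0.04. EPHX1, the microsomal epoxide hydrolase that acts after CYP1 enzymes on hydrocarbon epoxides, rose 1.63-fold (log2 change 0.71, SE 0.15, adjusted p = 0.0211 in limma). Control replicate 1 stood at 0.57, near the lowest treated array at 0.78, and the call was lost in 4 of 6 fits without an array, at adjusted p up to 0.0742. CYP2E1, which oxidises ethanol, rose 1.41-fold (adjusted p = 0.0112), from controls of -0.03 to 0.05 to treated arrays of 0.33 to 0.65. CYB5A, cytochrome b5, fell 1.22-fold (adjusted p = 0.0321), a call lost in each of the 6 fits without an array, at adjusted p up to 0.0991, and none of its 4 probe sets passed alone. POR, the reductase that supplies electrons to CYP1A1, had a change of -0.11 (adjusted p = 0.554) with overlapping groups.

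Relatives of ALDH3A1 and TIPARP were mixed. Of 7 aldehyde dehydrogenases, ALDH1A3, which makes retinoic acid, fell 1.86-fold (log2 change -0.89, SE 0.14, adjusted p = 0.00581 in limma), with treated arrays from -0.96 to -0.86 and controls from -0.35 to 0.27. ALDH3A2, the fatty aldehyde dehydrogenase closest to ALDH3A1, rose 1.21-fold (adjusted p = 0.0486), a call lost in 5 of 6 fits without an array, at adjusted p up to 0.136, and 5 did not pass. The change of ALDH3A2 was 0.49 with the median of its probe sets (adjusted p = 0.00589) and 0.23 without shared-sequence probe sets (adjusted p = 0.101). Of 14 PARP family genes, PARP4 rose 1.24-fold (adjusted p = 0.019), lost in 4 of those 6 fits at adjusted p up to 0.0695, and 12 did not pass. Without shared-sequence probe sets PARP4 changed by 0.16 (adjusted p = 0.447). ZC3HAV1, the antiviral zinc-finger protein also called PARP13, fell 1.30-fold (adjusted p = 0.0089), with 1 of 4 probe sets passing, at -1.02. That call was lost without shared-sequence probe sets, at -0.086 (adjusted p = 0.574), and with the median of its probe sets, at -0.20 (adjusted p = 0.0859). Of 6 other xenobiotic sensors none passed in limma, with 0 at an unadjusted p under 0.05, and their changes ran from -0.061 to 0.15.

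**Figure D5:**
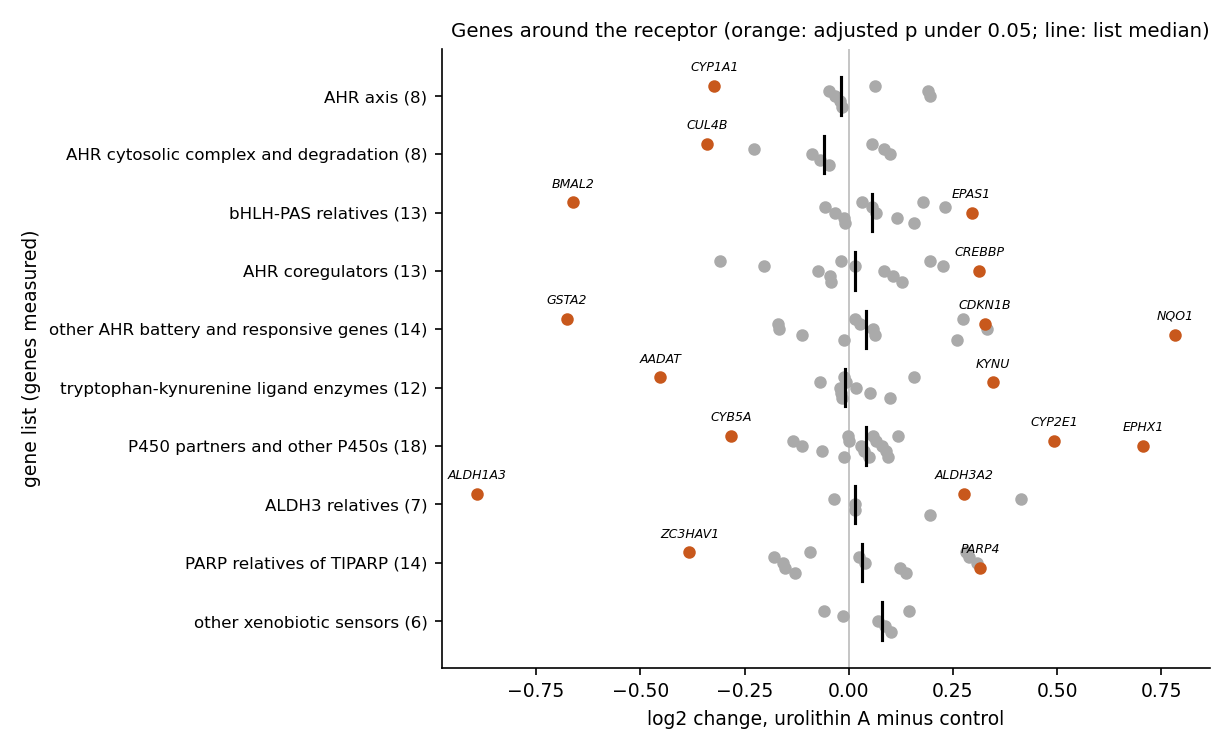
Log2 change (horizontal axis) of every measured gene of the axis and of the 9 lists around it (vertical axis, number of measured genes in brackets), with called genes in orange and the median of each list as a black line. List medians stay between -0.058 and 0.08, and the called genes lie on both sides of 0, from ALDH1A3 at -0.89 to NQO1 at 0.78.

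Across the series, 885 genes were called higher and 969 lower, with a median fold of 1.34 among those called. The medians of all probe sets on the treated arrays were between -0.0013 and 0.014. Because the deposited values are centred on the controls, presence of prostate markers could not be checked, and no summed marker level can be given. Of 4 measured luminal markers, KLK3 fell 1.97-fold (adjusted p = 0.00101 in limma) and 3 did not pass. All 7 probe sets of KLK3 were called lower, and its call was kept in each of the 6 fits without an array. Of 15 measured markers of other cell types, VIM, the vimentin of mesenchymal cells, rose 1.48-fold (adjusted p = 0.0461 in limma) and 14 did not pass. The call of VIM was kept without control replicate 2 and lost in the other 5 fits without an array, at adjusted p from 0.0553 without urolithin A replicate 3 to 0.143 without control replicate 1. Their per-array median ran from -0.0049 to 0.014 in the controls and from 0.03 to 0.07 in the treated arrays. Whether this has a part in the fall of CYP1A1 was not tested. Fewer cells of a kind and less RNA per cell cannot be told apart in bulk RNA.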

How the data were processed

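The values are log2 signals of 49386 probe sets, which the authors made with RMA, per the submitters' processing notes. In all 49386 the median of the 3 control arrays was 0, so it had been subtracted. Base 2 is taken from RMA, since the base is not given in the sources used here, nor is a genome build. Probe sets were named by the platform annotation, and the 45253 with 1 symbol (18239 genes) were used. Gene means were fitted with limma 3.58.1 in R 4.3.3 (treatment as the only term, lmFit and eBayes, Benjamini-Hochberg over all genes), and so were single probe sets. Fits were tested on simulated data. The number of arrays limits precision. Groups and replicate numbers came from sample titles. Batches are not given in the sources used here, and no arrays held identical values.

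The 8 genes and the lists were chosen with earlier results of these data known. Named were all 8, up to 6 called genes of each list, 6 fixed genes (2 of them not analysed here) and the 3 genes nearest to each called member. RefSeq promoters are of GRCh38.p14. Alternatives were other summaries, scalings, priors, weights, thresholds and each array left out.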

Additional observations from a re-analysis of the deposited data

How the results depend on the processing

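The call of CYP1A1 was lost, leaving 0 members called, with probe sets of shared-sequence names left out (log2 change -0.32, adjusted p = 0.0533), a trended and robust prior (-0.32, adjusted p = 0.0679), no moderation (-0.32, adjusted p = 0.153), array weights (-0.30, adjusted p = 0.0568) and a replicate block in the model (-0.32, adjusted p = 0.0811). A fold minimum of 1.5 and a threshold of 0.01 also called 0 members. In each of these limma fits CYP1A1 alone (1 member) had an unadjusted p under 0.05. Without an array, the members called ranged from 0 to 1, and CYP1A1 from -0.39 to -0.27. Without control replicate 2, AHR (0.27, unadjusted p = 0.0401 in limma) and TIPARP (0.27, unadjusted p = 0.0243) were also under 0.05, and neither was called. The call of CYP1A1 was kept with the median of probe sets and with median centring. Its 2 probe sets have a median equal to their mean, and neither has a shared-sequence name. The median and the shared-sequence setting thus left its value unchanged, and its adjusted p moved there only through the other genes.

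Whether replicate numbers pair the arrays is not settled: deviations of same-numbered arrays correlated at 0.078, 0.023 and 0.196. Control replicates 1 and 3 correlated best with the treated array of their own number. Control replicate 2 correlated best with urolithin A replicate 1, at 0.073. CYP1A1 was the only member whose call the block changed. Among list genes it ended the calls of CREBBP (adjusted p = 0.0869) and ALDH3A2 (adjusted p = 0.0576), while other list genes gained a call. The lists thus kept 9 genes called higher and 7 lower. With the block 860 of all genes were called higher and 1003 lower.

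Values that did not pass turned sign as follows. Without shared-sequence probe sets AHR was -0.16, ARNT -0.10 and CYP1A2 0.085, and CYP1B1 had no value, as all its probe sets carry such names. Without control replicate 1, AHRR was 0.0026, CYP1A2 0.06 and ALDH3A1 0.11. Without urolithin A replicate 1, CYP1A2 was 0.076, and without urolithin A replicate 3, ALDH3A1 was 0.03. HIF1A was 0.0086 with the median of probe sets, 0.026 without control replicate 3 and 0.0098 without urolithin A replicate 3. Over the 6 fits without an array, AHRR ranged from -0.11 to 0.0026, CYP1A2 from -0.098 to 0.076, ALDH3A1 from -0.091 to 0.11 and HIF1A from -0.046 to 0.026. The cause was not tested.

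Genes called higher and lower numbered 574 and 718 with the trended prior, 262 and 298 without moderation, 179 and 270 with the fold minimum, 272 and 370 at 0.01, 1838 and 2011 as single probe sets, and 482 to 628 and 581 to 681 without an array. In the 9 lists, 5 rose and 4 fell with the trended prior, 1 and 2 without moderation, 6 and 4 without shared-sequence probe sets, and 3 to 5 rose and 4 to 5 fell without an array. Centred values give no signal over background, so a limit from dim signal could not be examined.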
